A study of Mus musculus with 6 samples.

Results

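Genes of vesicle trafficking and the secretory pathway were examined in the livers of 3 male mice. They were the genes of the 2 arrays with a single annotated symbol starting with Rab, Arf, Sec, Vps, Snx, Stx or Vamp and a digit, with Copa, Copb, Cope, Copg or Copz, or with Ap1 to Ap4 followed by a subunit letter and a digit. This rule used names only, and it found 132 of the 7151 named genes, measured by 169 of 9663 named probes. Only probes in the brighter part of an array kind were used, with a mean level over all mice past its 50th percentile. Of the trafficking genes, 72 (54.5%) had at least 1 such probe, against 54% of all named genes, and 60 had none. A gene whose level was high in 1 mouse could pass through that mouse.

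Total RNA was measured with 1 mouse in each group and each liver on 2 kinds of array, A and B, which carry different sets of 8448 spots. A mouse fed ad libitum, that is, without limit, was labelled as killed at 17 days and another at 174 days. A calorie-restricted mouse, whose intake was held below that of free feeding, was killed at 177 days. The labels give no strain, genotype, length of restriction or degree of restriction, and the age unit rests on them alone. No group had a replicate, so no test, p-value or error between animals can be given, and every difference below describes these 3 animals. The 6 arrays hold these 3 mice on 2 kinds with different spots, so they are not replicates, and having 1 mouse per group limits the precision.

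Proteins made for secretion enter the endoplasmic reticulum (ER) through the Sec61 channel and leave it in vesicles coated with the COPII complex. COPI vesicles carry proteins back from the Golgi, clathrin adaptors load vesicles at the Golgi, endosomes and plasma membrane, and retromer and sorting nexins return receptors from endosomes. Small GTPases of the Rab and Arf families select membranes and recruit coats and tethers, and SNARE proteins fuse the vesicle with its target. Hepatocytes rely on this route to release albumin, clotting factors and lipoproteins, and on its endosomal arm to take up and sort receptors.

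The 174-day arrays were the dimmest: their median intensity was 35.8 on array A and 60.8 on array B, compared with 333 to 402.5 on the other arrays. Low values were therefore set to the 5th percentile of the array, logs to base 2 were taken, and the 3 arrays of a kind were given the same distribution (quantile normalization). A level below is this log2 value, and a difference is between 2 such levels. Levels of different genes come from different probes and are not comparable. Of 6 hepatocyte markers with a probe, Alb, Apoa1, Fga, Serpina1e and Ttr lay above the filter, and none of the 12 listed lymphocyte markers had a probe. The mean level over the probes of the hepatocyte markers, in the order 17-day, 174-day and calorie-restricted, was 11.44, 11.27 and 11.42. For 3 Kupffer cell markers it was 9.30, 9.07 and 9.10, for 4 stellate cell markers 9.23, 9.10 and 9.13, for 2 cholangiocyte markers 8.02, 8.08 and 7.76, and for 3 erythroid markers 8.59, 8.53 and 8.47. For 1 endothelial marker it was 10.10, 9.82 and 9.68, and for the pancreas marker Cpa1 8.50, 8.66 and 8.86. Being means over probes, these values give more weight to the erythroid marker Hba-a1, with 7 probes above the filter, and the stellate marker Col3a1, with 4. The only marker at least 2-fold apart in a comparison was Alb, higher by 1.18 in the calorie-restricted than in the 174-day mouse, and by 0.55 with the correction for spot position described below. The other hepatocyte markers did not move with it. Between the same 2 mice Ttr differed by 0.26, Apoa1 by -0.01, Fga by -0.22 and Serpina1e by -0.46. Between the calorie-restricted and the 17-day mouse Alb differed by 0.89 and Serpina1e by -0.92, so the means hide a split. The part of cell composition in the results was not tested, and fewer cells of a type cannot be told apart from less RNA per cell.

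The question of age was addressed by the 2 mice fed ad libitum. No trafficking gene was at least 2-fold (1 log2) higher or lower at 174 than at 17 days, where 0.724% of all 3865 genes above the filter were higher and 0.44% lower. The differences of the 72 trafficking genes ran from -0.58 to 0.77 with a median of 0.03, against a median of -0.03 over all genes. At 1.5-fold, 4 trafficking genes (5.56%) were higher, against 3.7% of all genes, and 0 were lower, against 4.92%. These 4 were Sec24d, a cargo-binding subunit of the COPII coat, Rab1b, a GTPase of ER-to-Golgi transport, Stx17, a SNARE of autophagosome fusion, and Rab10, a GTPase of transport to the cell surface. After a correction for spot position on the array (described with its plot), only Sec24d passed 1.5-fold, with a difference of 0.60. That is 1.41% of 71 trafficking genes, against 2.48% of all genes, and 0 were lower, against 2.3%. The corrected median was 0.07, against -0.02 over all genes.

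The question of diet was addressed by the calorie-restricted mouse against the 174-day mouse fed ad libitum. The calorie-restricted mouse had values at least 2-fold lower for Stx17 and the Rab11 effector Rab11fip2, which is 2.78% of the trafficking genes against 4.61% of all genes. None was at least 2-fold higher, against 2.25% of all genes. Of the 72 genes, 48 (66.7%) had a difference below 0, against 52.7% of all genes, and the median was -0.22, against -0.04. At 1.5-fold, 20 genes (27.8%) were lower, against 17% of all genes, and 4 (5.56%) were higher, against 11.5%. The higher ones were Ap2s1, Rab27a, Ap1g1 and Sec24c. These 4 stood at 0.18, 0.15, 0.16 and 0.35 with the position correction, and 2 other genes (2.82%) were at least 1.5-fold higher, against 6.88% of all genes. The corrected median was -0.03, against 0.00 over all genes, with 54.9% of the trafficking genes below 0, against 49.3% of all; 8 of 71 genes (11.3%) were then at least 1.5-fold lower, against 9.18% of all, and neither Stx17 nor Rab11fip2 passed 2-fold.

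The calorie-restricted mouse was also set against the 17-day mouse, which differs from it in both age and diet. No trafficking gene was at least 2-fold apart, where 0.466% of all genes were higher and 1.11% lower. The median was -0.22, against -0.09 over all genes, and 52 of 72 genes (72.2%) had a difference below 0, against 58.8% of all genes. At 1.5-fold, 13 genes (18.1%) were lower, against 9.91% of all genes, and 2 (2.78%), Rab27a and Ap1g1, were higher, against 5.49%. Vps51, a subunit of Golgi tethers, had the lowest value at -0.95, which was -0.49 with the position correction. With the 17-day and calorie-restricted arrays normalized alone, without the dim 174-day arrays, 10 genes (13.9%) were lower, against 7.71% of all genes. With the position correction 2 genes (2.82%), Stx3 and Vps72, were lower, against 3.88% of all genes, and 0 were higher, against 2.48%. The corrected median was -0.05, against -0.02, and 53.5% of the trafficking genes were below 0, against 53.3% of all genes. The 3 comparisons share mice, so a value of 1 mouse enters 2 of them.

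**Figure D1:**
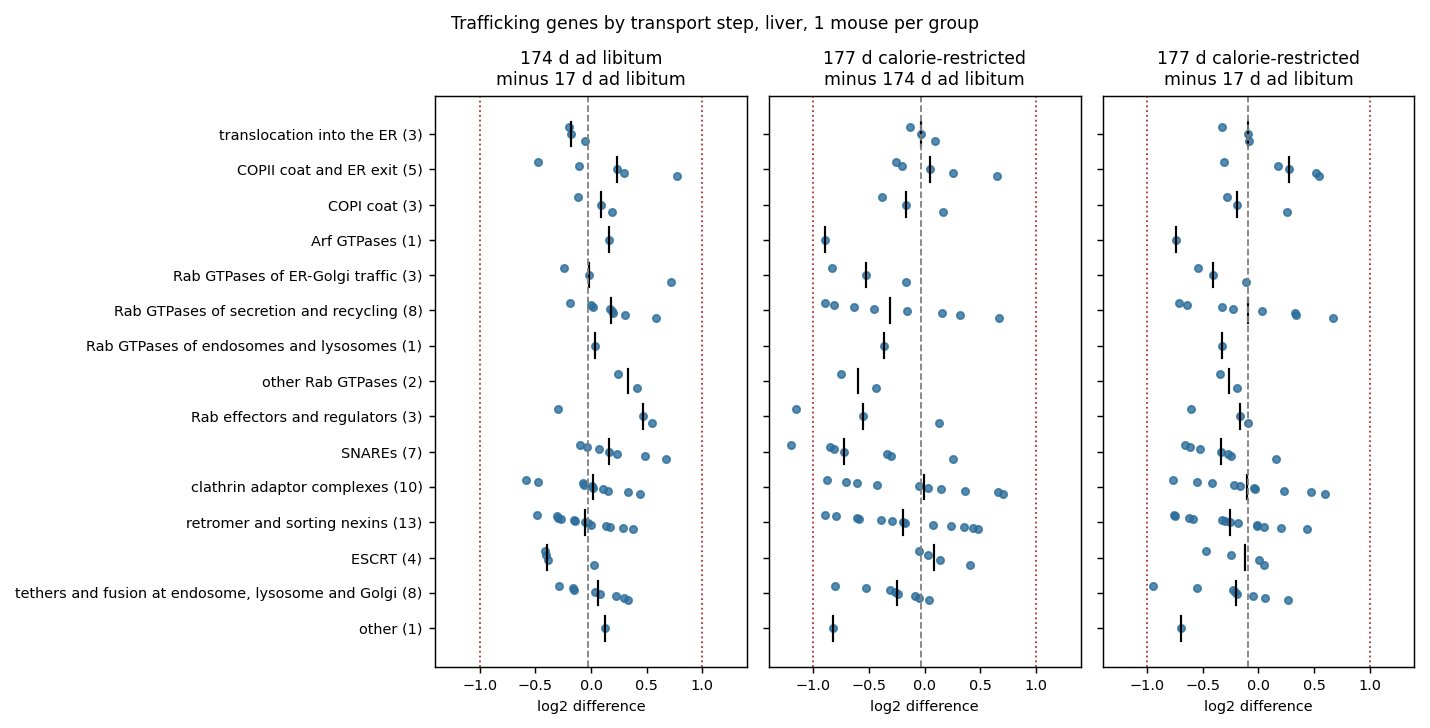
Log2 difference of each of the 72 trafficking genes above the filter (points, horizontal axis) by transport step (rows, number of genes in parentheses) in the 3 comparisons (panels), with 1 mouse per group and no error between animals. Short black bars are medians of a step, the grey dashed line is the median of all 3865 genes and the red dotted lines mark 2-fold. Only 2 points, Stx17 among the SNAREs and Rab11fip2 among the Rab effectors, lie beyond 2-fold, both in the middle panel.

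The spread between probes of the same gene was the only measure of error within a comparison, and it does not include the spread between animals. Over 557 genes with several probes above the filter, its pooled SD was 0.45 log2 for the age comparison, 0.58 for the diet comparison and 0.40 for the calorie-restricted against the 17-day mouse. Of the trafficking genes 11 (15.3%), 24 (33.3%) and 26 (36.1%) differed by more than that SD in the 3 comparisons, against 17.3%, 28.9% and 34.1% of all genes. In the diet comparison only Stx17 lay beyond 2 SDs, and in the last comparison only Vps51. The share of all genes beyond 2 SDs was not computed, so these 2 genes are not shown to stand out. Most differences named below are thus within the scatter that different probes of 1 gene show, and 65 of the 72 genes had only 1 probe above the filter.

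Entry into the ER was represented by 5 genes, of which 3 lay above the filter, and none reached 1.5-fold in any comparison. Sec61a2, an isoform of the channel-forming subunit, had levels of 9.60 in the 17-day, 9.55 in the 174-day and 9.51 in the calorie-restricted mouse. Sec62, which helps feed finished proteins into the channel, stood at 10.06, 9.87 and 9.74, and Sec11c, a catalytic subunit of the signal peptidase, at 7.52, 7.34 and 7.43. The largest of these differences was that of Sec62 between the calorie-restricted and the 17-day mouse, -0.33, which is within the spread between probes. With the position correction Sec61a2 and Sec11c had diet differences of 0.47 and 0.41. Sec61g and Sec63 had no probe above the filter.

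The COPII coat, which buds vesicles from the ER, had 5 of 9 genes above the filter, and its cargo-binding Sec24 subunits did not move alike. Sec24d had raw intensities of 287, 48.4 and 427 in the 17-day, 174-day and calorie-restricted mouse, which became levels of 7.06, 7.84 and 7.58. It was thus lowest in the young mouse and had the highest age difference of all trafficking genes, 0.77. Its reading in the young mouse lay below the median of that array, 364.3. In the 174-day and calorie-restricted mouse it lay above theirs, 35.8 and 375. Sec24d therefore passed the filter through the 2 mice in which it was higher. Sec24c went the other way, with levels of 7.78, 7.31 and 7.96 and an age difference of -0.47, and it was lowest in the 174-day mouse. With the position correction the age differences of Sec24d and Sec24c were 0.60 and -0.19. The corrected difference of Sec24d between the calorie-restricted and the 17-day mouse was 0.07. Sec24a stood at 8.43, 8.73 and 8.98, so that it was 0.55 higher in the calorie-restricted than in the 17-day mouse. Its 2 probes, 1 on each array, gave 0.72 and 0.37 for that difference, so both had the same direction. The inner-coat subunit Sec23b had differences of 0.23, 0.05 and 0.28 in the age, diet and last comparison, and the Sec23-binding protein Sec23ip -0.10, -0.20 and -0.31. The outer-coat subunits Sec13 and Sec31a, the other inner-coat subunit Sec23a and the ER exit site scaffold Sec16a had no probe above the filter.

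The COPI coat had 3 of 6 subunits above the filter, and none reached 1.5-fold in any comparison. Copa, the alpha subunit, had levels of 12.16, 12.04 and 11.87 in the 17-day, 174-day and calorie-restricted mouse. The paralogous gamma subunits Copg1 and Copg2 stood at 8.60, 8.79 and 8.41 and at 8.52, 8.61 and 8.78, so that their diet differences were -0.38 and 0.17. A dim probe of each on array A gave -0.16 for Copg1 and -0.47 for Copg2, so the probes of Copg2 differed in direction. The spots of Copg1 and Copg2 could share signal, since the sources used here do not give the probe sequences. Copz1 had 2 probes below the filter whose diet differences were 1.14 and -0.72, and no value is read from them. Copb2 and Cope also lay below the filter.

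The Arf GTPases recruit COPI and several adaptors to the Golgi. Arf3 had raw intensities of 1798, 403 and 882, and levels of 9.89, 10.05 and 9.15. The calorie-restricted mouse was the lowest of the 3, 0.90 below the 174-day mouse and 0.74 below the 17-day mouse. Its diet difference was -0.81 after the position correction. Arf4 lay below the filter.

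Of 6 Rab GTPases of ER and Golgi traffic, 3 were above the filter, and these 3 had diet differences below 0, as 52.7% of all genes did. Their median was -0.53, and -0.12 with the position correction. Rab1a, below the filter, read 0.50. Rab1b had levels of 8.03, 8.75 and 7.91, so the 174-day mouse was the highest and the calorie-restricted mouse differed from the 17-day mouse by -0.12. Its diet difference was -0.84 as normalized and -0.79 with the position correction. Rab18, a GTPase of the ER and of lipid droplets, stood at 9.56, 9.54 and 9.01. Its 2 probes above the filter, both on array A, gave -0.52 and -0.54 in the diet comparison, but a dim probe on array B gave 0.60, and the gene stood at -0.12 with the position correction. Rab6a, which acts in transport within and back through the Golgi, had a diet difference of -0.17.

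Among the Rab GTPases of secretion and recycling, with 8 of 10 genes above the filter, members differed in direction. Rab27a, which docks secretory and lysosome-related vesicles, had levels of 9.66 in both mice fed ad libitum and 10.33 in the calorie-restricted mouse. It was thus the highest trafficking gene in the calorie-restricted against the 17-day mouse, at 0.67, but with the position correction this was 0.28. Rab8a, which directs vesicles to the plasma membrane and cilium, had levels of 9.91, 10.10 and 9.20, a diet difference of -0.89 that was -0.03 after the position correction. Rab10 stood at 7.45, 8.04 and 7.23, highest in the 174-day mouse. Rab11a and Rab11b, the GTPases of the recycling endosome, were among the 8 highest in the calorie-restricted against the 17-day mouse, both at 0.33. The 2 probes of Rab11b gave 0.22 and 0.44 there, while the 2 dim probes of Rab11a gave 0.36 on array A and -0.09 on array B. Rab3d, a GTPase of regulated secretion, had a diet difference of -0.63 that was 0.03 with the position correction. Rab17 and Rab35 had diet differences of -0.16 and -0.45.

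Of 11 Rab GTPases of endosomes and lysosomes, only Rab29 had a probe above the filter, with differences of 0.03, -0.36 and -0.33. The early endosome GTPase Rab5a missed the filter narrowly, with its brighter probe at percentile 49.6, and Rab5b and Rab9 also lay below it. This step was therefore hardly measured here. Of 4 Rab GTPases placed in no step, Rab12 and Rab40c were above the filter, with diet differences of -0.76 and -0.44, and -0.33 and -0.51 with the position correction. A dim probe of each gave 0.13 for Rab12 and -0.20 for Rab40c. The last genes to miss the filter were Sec13 at percentile 49.8, Rab5a and Stx16 at 49.6, and the first to pass were Snx8 at 50.01, Vps50 at 50.1 and Rab35 at 50.5.

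Rab11fip2 encodes an adaptor that links Rab11 on recycling endosomes to the motor myosin V. Its only probe, on array B, read 1522, 451 and 822 in the 17-day, 174-day and calorie-restricted mouse. The levels were 9.64, 10.19 and 9.04, with the calorie-restricted mouse lowest and the 174-day mouse highest. The diet difference was -1.16 as normalized and -0.58 with the position correction. Rab3ip, the exchange factor that activates Rab8, had levels of 9.25, 9.71 and 9.15 and the same order of the mice as normalized. With the position correction its differences were 0.17, -0.01 and 0.16 in the age, diet and last comparison. The calorie-restricted mouse was then not the lowest. Rab11fip1, a further Rab11 adaptor, had a diet difference of 0.12.

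SNARE genes were lower in the calorie-restricted than in the 174-day mouse in 6 of 7 cases, with a median of -0.73, where 52.7% of all genes were below 0 with a median of -0.04. With the position correction the median of the SNAREs was -0.16, with 6 of 7 below 0, where 49.3% of all genes were below 0. Stx17 directs autophagosomes to fuse with lysosomes. Its only probe, on array B, read 541 in the 17-day, 142 in the 174-day and 312 in the calorie-restricted mouse, and the levels were 8.09, 8.76 and 7.56. The 174-day mouse was the highest and the calorie-restricted mouse the lowest, with a diet difference of -1.20 that became -0.80 with the position correction. Stx4a, a plasma membrane SNARE, had levels of 8.73, 8.96 and 8.11, and Stx12, a SNARE of recycling endosomes, 8.42, 8.58 and 7.77. Their diet differences were -0.85 and -0.82, and -0.16 and -0.15 with the correction. Sec22b, a SNARE of ER and Golgi vesicles, stood at 8.16, 8.64 and 7.91, and its diet difference of -0.73 was 0.02 with the correction. Stx7, of late endosomes, and Stx3, of the apical membrane, had diet differences of -0.30 and -0.34. For Stx3, however, 2 dim probes gave 0.86 and 0.47. Vamp8, of endosomes and secretory granules, was the exception at 0.26, and at -0.30 with the correction.

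**Figure D2:**
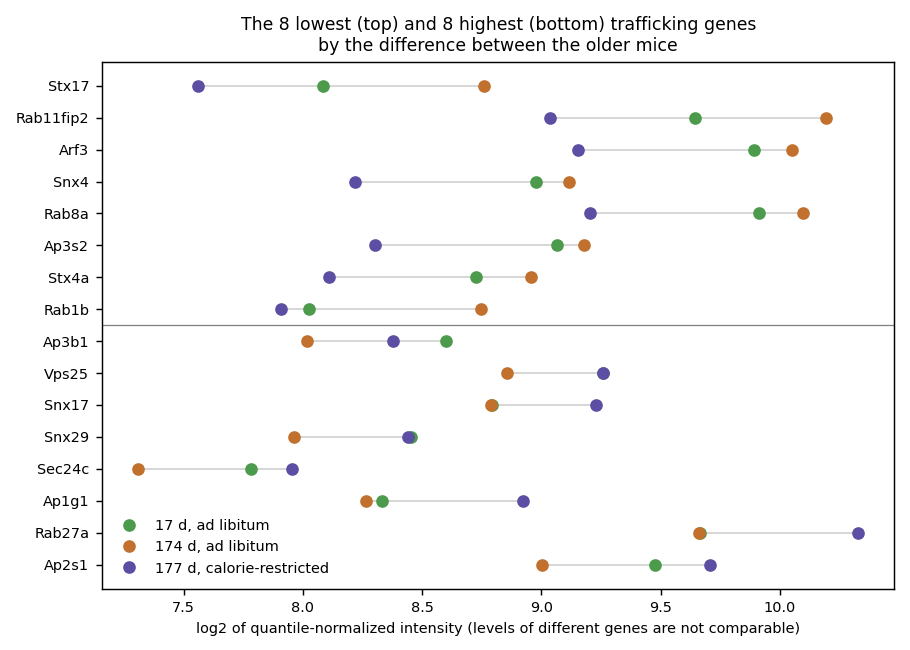
Level (log2 of quantile-normalized intensity, horizontal axis) of the 8 trafficking genes with the lowest and the 8 with the highest difference between the calorie-restricted and the 174-day mouse, with 1 point per mouse and no error between animals. In all 8 upper rows the calorie-restricted mouse is lowest and the 174-day mouse highest; Stx17, for example, stands at 8.09, 8.76 and 7.56 in the 17-day, 174-day and calorie-restricted mouse. Levels of different genes are not comparable.

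The clathrin adaptor complexes choose cargo for vesicles at the Golgi (AP-1), the plasma membrane (AP-2) and endosomes (AP-3), and 10 of 18 genes were above the filter. Subunits of the same complex differed in direction as normalized. In AP-1, the large subunit Ap1g1 had levels of 8.33, 8.27 and 8.92 and the small subunit Ap1s1 10.37, 10.81 and 10.21. The calorie-restricted mouse was thus highest for Ap1g1, by 0.66 over the 174-day mouse, and lowest for Ap1s1, by 0.61. The corrected difference of Ap1g1 was 0.16 and that of Ap1s1 -0.61, and a dim probe of Ap1g1 read -0.04. In AP-2, the small subunit Ap2s1 stood at 9.48, 9.003 and 9.71 and had the highest diet difference of all trafficking genes, 0.70, which was 0.18 with the position correction. Ap2a1, an alpha subunit, had a diet difference of -0.71, and its paralogue Ap2a2 one of 0.15; the corrected values were -0.43 and -0.15. The medium subunits of AP-1, Ap1m1 and Ap1m2, had diet differences of 0.03 and -0.43. The 2 probes of Ap2m1, the medium subunit of AP-2, gave -0.27 and 0.17 in the diet comparison. In AP-3, the large subunit Ap3b1 stood at 8.60, 8.02 and 8.38 and had the lowest age difference of all trafficking genes, -0.58. The small subunit Ap3s2 stood at 9.07, 9.18 and 8.30, a diet difference of -0.88 that was -0.26 with the correction.

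Retromer, retriever and the sorting nexins, which return membrane proteins from endosomes, had 13 of 23 genes above the filter. Of the retromer core, Vps35 had levels of 10.17, 10.45 and 9.86, and Vps26b 7.60, 7.55 and 7.35. The diet difference of Vps35 was -0.59, and -0.02 with the position correction. Vps26a and Vps29 lay below the filter. In retriever, a complex related to retromer, Vps26c stood at 9.50, 9.36 and 8.75 and Vps35l at 8.44, 8.41 and 8.64, with diet differences of -0.61 and 0.23. The corrected values were -0.06 and 0.31, and a dim probe of Vps26c read 0.39. Snx17, the sorting nexin that hands cargo to retriever, had a level of 8.79 in both mice fed ad libitum and 9.23 in the calorie-restricted mouse. That difference of 0.44 was also 0.44 with the position correction. Snx4, of recycling endosomes, stood at 8.98, 9.12 and 8.22, with a diet difference of -0.90 as normalized and -0.66 corrected. Snx29 and Snx3 had age differences of -0.49 and -0.31. Between the calorie-restricted and the 17-day mouse, Snx5 and Snx21 had differences of -0.59 and -0.62. The diet differences of Snx14 and Snx32 were 0.08 and -0.40. The 2 probes of Snx8 had the same sign in each comparison, with diet differences of -0.27 and -0.09.

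The ESCRT complexes, which bud vesicles into endosomes, had 4 of 7 genes above the filter, and 3 of these were among the 8 lowest trafficking genes in the age comparison. Vps4a, the ATPase that takes the complex apart, had an age difference of -0.41, Vps25, of ESCRT-II, one of -0.40, and Vps28, of ESCRT-I, one of -0.38. All 3 lie within the SD of 0.45 between probes, and 53.5% of all genes were below 0 in this comparison. With the position correction Vps4a, Vps25 and Vps28 stood at -0.31, -0.09 and -0.55. The median of the step was -0.39 as normalized and -0.20 with the position correction. Vps37a, also of ESCRT-I, stood at 7.73, 7.75 and 7.78. Its 2 probes, 1 on each array, gave 0.33 and -0.27 in the diet comparison.

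Tethering complexes hold a vesicle at its target before fusion, and 8 of 10 of their genes were above the filter. Of the class C core shared by the HOPS and CORVET tethers, Vps11 stood at 11.09, 10.80 and 10.53, and Vps33a at 7.58, 7.88 and 7.64, while Vps16 lay below the filter. The 3 probes of Vps33a ranged from -0.41 to 0.14 in the diet comparison. Vps39, of HOPS, had a diet difference of -0.31 and Vps8, of CORVET, one of -0.09 that was -0.70 with the position correction. The 3 probes of the HOPS subunit Vps41 were all dim, and they ranged from -1.12 to 0.96. Vps51, shared by the GARP and EARP tethers of Golgi and endosomes, read 2755, 336 and 1583, with levels of 10.48, 10.34 and 9.53. The calorie-restricted mouse was the lowest, 0.95 below the 17-day mouse and 0.80 below the 174-day mouse. These differences were -0.49 and -0.61 with the position correction. Vps54, of GARP, had levels of 9.06, 9.28 and 9.32, and Vps50, of EARP, 7.36, 7.69 and 7.16. Vps45, a partner of SNAREs, had differences of -0.16, -0.06 and -0.22.

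The rule on names also caught genes that do not act in this pathway or whose step is less clear. Vps72, a subunit of chromatin complexes, was the only one of 6 such genes above the filter. It stood at 9.74, 9.86 and 9.04, with a diet difference of -0.82 that was -0.71 with the position correction. The lipid-binding proteins Sec14l2 and Sec14l4 and the lipid transporters Vps13a, Vps13b and Vps13d lay below the filter.

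**Figure D3:**
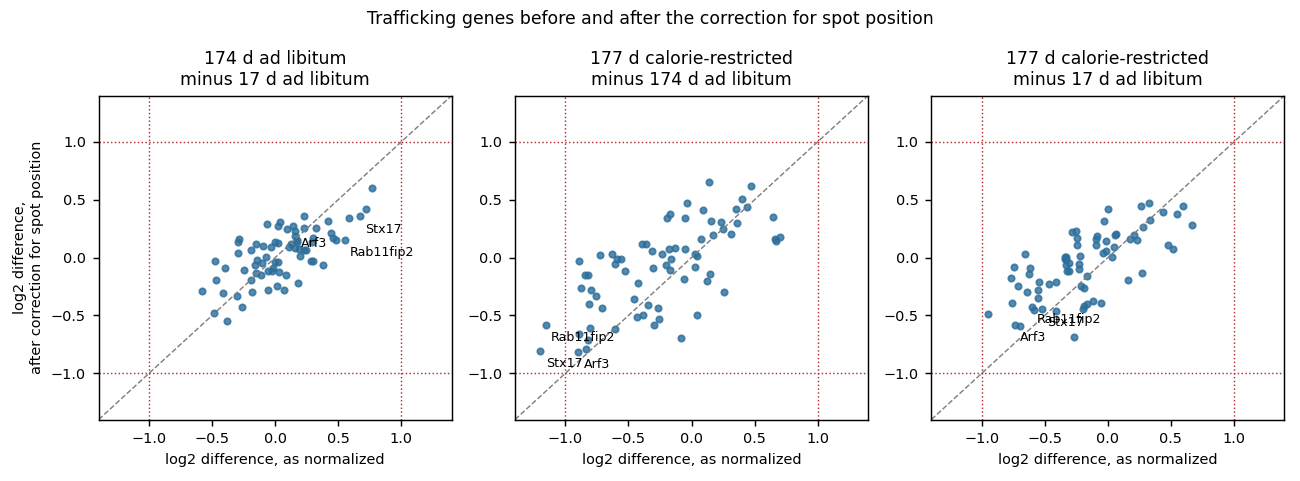
Log2 difference of each trafficking gene as normalized (horizontal axis) and with the correction for spot position (vertical axis), for 71 genes in the 3 comparisons (panels); the dashed line marks equal values, the red dotted lines 2-fold, and there is 1 mouse per group. In the middle panel the points of Stx17, Rab11fip2 and Arf3 stand at -0.80, -0.58 and -0.81 on the vertical axis, inside 2-fold.

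The position correction split the spots, in the order of the deposited tables, into 16 blocks of equal length, and subtracted from each array the median deviation of every block and of every place in a block. The true layout of the arrays is not in the sources used here. It took Vps50 below the filter and left 71 trafficking genes. The share of these at least 1.5-fold lower in the diet comparison was 11.3%, compared with 27.8% of 72 before, while over all genes the share was 9.18% compared with 17%. The 8 that passed were Arf3, Stx17, Rab1b, Vps72, Vps8, Snx4, Ap1s1 and Vps51. Those at least 1.5-fold higher were Vps28, at 0.65, and Snx29, at 0.62. By array kind without the correction, the median diet difference was -0.27 over 33 trafficking genes on array A, against 0.02 over all genes there, and -0.18 over 42 genes on array B, against -0.09.

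**Figure D4:**
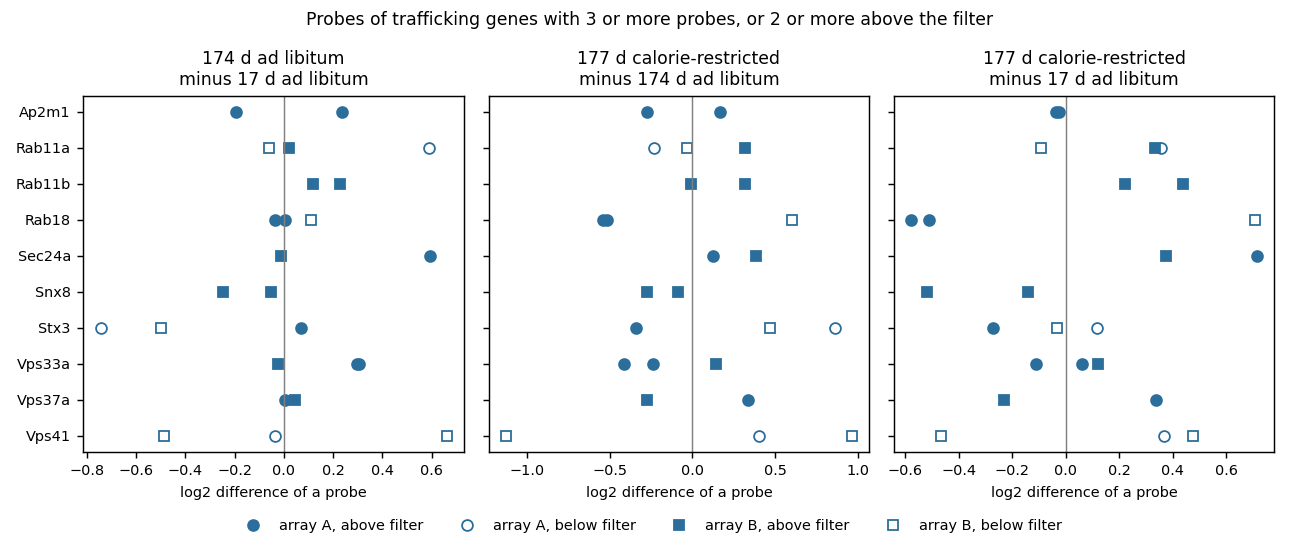
Log2 difference of single probes (horizontal axis) of the trafficking genes with 3 or more probes, or with 2 or more above the filter (rows), in the 3 comparisons (panels); circles are array A, squares array B, and filled symbols lie above the filter. The filled symbols of a gene lie on opposite sides of 0 in the diet panel for Ap2m1, Rab11b, Vps33a and Vps37a, as for Ap2m1 with -0.27 and 0.17.

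Probes of the same trafficking gene scattered less than those of all genes, over few genes. The pooled SD was 0.21, 0.26 and 0.21 in the 3 comparisons over 7 trafficking genes with 15 probes, against 0.45, 0.58 and 0.40 over 557 genes with 1216 probes.

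Promoters were read from RefSeq for the mouse assembly GRCm38.p6, as windows from 250 bases before to 50 bases after a transcript start. They matched 109 of the 132 genes, and letters were searched on both strands; a match is a description of the letters and not a binding site. The CLEAR element, bound by TFEB, a regulator of lysosome and autophagy genes, has the core TCACGTGA. It was found for 8 of 109 trafficking genes (7.34%), against 1.12% of all 27025 genes with a window. Among genes with a probe above the filter it was found for 3 of 59 trafficking genes (5.08%), against 2.37% of 3163 genes. The 8 genes are shown because they belong to both arms of the pathway, with 30 bases around the core and the core in capitals. Vps26a had another core in the window of its other annotated start, at chr10:62486970-62486999 (minus strand), which is not printed.
Rab21, chr10:115315604-115315633 (minus strand): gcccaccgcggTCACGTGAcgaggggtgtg
Rab24, chr13:55321961-55321990 (minus strand): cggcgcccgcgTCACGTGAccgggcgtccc
Rab5a, chr17:53479127-53479156 (plus strand): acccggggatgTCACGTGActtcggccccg
Sec23ip, chr7:128744805-128744834 (plus strand): gaccgaggctgTCACGTGAtaggcttgggt
Sec62, chr3:30792832-30792861 (plus strand): gttgtgaggtgTCACGTGAggagcggacat
Vps16, chr2:130424290-130424319 (plus strand): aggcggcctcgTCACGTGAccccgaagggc
Vps26a, chr10:62486732-62486761 (minus strand): atggcctacggTCACGTGAcgggcggcggg
Vps33a, chr5:123573026-123573055 (minus strand): agcgactcggaTCACGTGAacgtcccgtca

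Of these 8 genes, Sec23ip, Sec62 and Vps33a had a probe above the filter. Their diet differences were -0.20, -0.13 and -0.24, and none reached 1.5-fold in any comparison. Rab21, Rab24, Rab5a, Vps16 and Vps26a were too dim here to be read. Counting from the transcript start, with -1 as the base before it, the core began at -54 in Sec23ip, at -33 in Sec62 and at -29 in Vps33a.

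The core of the unfolded protein response element, TGACGTGG, is known from genes that are switched on when proteins misfold in the ER. It was found for 4 of 109 trafficking genes (3.67%), against 0.714% of all genes. Among genes with a probe above the filter it was found for 1 of 59 trafficking genes (1.69%), against 1.2% of all such genes, a share near the background. They are shown with the core in capitals, which reads CCACGTCA where it lies on the opposite strand.
Copb2, chr9:98563713-98563742 (plus strand): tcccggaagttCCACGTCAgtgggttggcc
Sec23a, chr12:59011993-59012022 (minus strand): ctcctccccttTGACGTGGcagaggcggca
Sec24d, chr3:123267459-123267488 (plus strand): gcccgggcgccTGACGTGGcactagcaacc
Stx5a, chr19:8741422-8741451 (plus strand): tggcgcagcagCCACGTCAccgagttagga

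Sec24d, whose levels were 7.06, 7.84 and 7.58, was the only one of the 4 with a probe above the filter. The longer ER stress element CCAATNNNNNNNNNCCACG, where N is any base, was found for 0 of the 109 trafficking genes and for 0.137% of all genes. The cAMP response element TGACGTCA was found for 3 of 109 trafficking genes (2.75%), against 2.03% of all genes. Among genes with a probe above the filter it was found for 0 of 59 trafficking genes, against 3.73% of all such genes. The GC box GGGCGG, bound by Sp1, was found for 74.6% of these trafficking genes and 70.1% of all such genes, and the CCAAT box, as the letters CCAAT, for 37.3% and 42.7%. The median GC content was 62.7% for the windows of these trafficking genes, 61% for all genes with a probe above the filter and 52.7% for all genes, so the shares over all genes come from windows poorer in GC.

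The 250 bases before the start are shown for Stx17 and for 1 of the 2 annotated starts of Rab11fip2, the genes past 2-fold in the diet comparison, with GC boxes on either strand in capitals. Stx17 lies at chr4:48124669-48124918 on the plus strand and Rab11fip2 at chr19:59943655-59943904 on the minus strand.
Stx17: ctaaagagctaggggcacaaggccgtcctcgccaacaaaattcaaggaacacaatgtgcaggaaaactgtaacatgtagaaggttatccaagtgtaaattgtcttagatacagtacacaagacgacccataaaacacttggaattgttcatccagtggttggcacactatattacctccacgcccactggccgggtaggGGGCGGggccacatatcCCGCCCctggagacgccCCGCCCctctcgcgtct
Rab11fip2: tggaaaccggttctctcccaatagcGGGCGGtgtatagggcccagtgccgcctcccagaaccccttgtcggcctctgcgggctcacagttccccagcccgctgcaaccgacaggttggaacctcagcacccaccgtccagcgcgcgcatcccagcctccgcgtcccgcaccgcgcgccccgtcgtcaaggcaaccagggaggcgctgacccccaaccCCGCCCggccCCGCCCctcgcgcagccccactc

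Both printed stretches hold 3 GC boxes, and their GC content is 52% for Stx17 and 71.6% for Rab11fip2. The stretch before the other start of Rab11fip2, which is not printed, holds 4 GC boxes at a GC content of 78.4%. The CCAAT letters occur only in the printed stretch of Rab11fip2 among these 3.

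Pathway genes outside the naming rule were taken from lists of 210 genes, of which 84 had a probe above the filter. Their medians were -0.08, 0.00 and -0.10 in the age, diet and last comparison. Over all genes the medians were -0.03, -0.04 and -0.09. In the age comparison 2 of the 84 were at least 2-fold higher, where 0.724% of all genes were. Tmed2, a cargo receptor of ER and Golgi vesicles, was higher by 2.48, but its only spot stood apart from both others in the 174-day mouse alone, with levels of 7.31, 9.79 and 6.69. Arfip1, which binds Arf GTPases, was higher by 1.16, and by 0.58 when a dim probe was included. In the diet comparison the same 2 genes, Use1, a SNARE of the ER, and Cyth2, an exchange factor of Arf GTPases, were at least 2-fold lower, at -3.10, -1.60, -1.19 and -1.05, which makes 4 of 84 where 4.61% of all genes were lower. Trappc1, a subunit of a Golgi tether, and Mia3, which loads large cargo into COPII vesicles, were higher, at 1.21 and 1.05, which makes 2 of 84 where 2.25% of all genes were higher. In the calorie-restricted against the 17-day mouse only Cyth2 passed 2-fold, at -1.17, where 1.11% of all genes were lower. With the position correction Tmed2 and Trappc1 still passed 2-fold in the diet comparison, at -2.44 and 1.14, while Arfip1 stood at -0.98, Use1 at -0.57, Cyth2 at -0.98 and Mia3 at 0.34. Over all its probes, the dim one included, Arfip1 had a diet difference of -0.64. In the age comparison the corrected values of Tmed2 and Arfip1 were 2.25 and 0.81, and Cyth2 stood at -1.28 against the 17-day mouse.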

How the data were processed

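Deposited spot intensity values on a linear scale were used for 3 livers on 2 array kinds; per the labels these are total RNA, and the sources used here do not state how the authors made the intensity values, background and scaling included. Probes were named through GEO's platform annotation: of 16896 spots, 9663 had 1 symbol, 436 several and 6797 none. All 132 trafficking genes matched RefSeq by gene number and 0 symbols changed. Of the columns of values, 0 had no mouse.

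Values were raised to the 5th percentile of their array, log2-transformed and quantile-normalized over 3 arrays. Probes with a mean above the 50th percentile entered, and the value of a gene was the median over its entering probes. A call was a difference of at least 1 log2 (2-fold); with 1 mouse per group there was no test. Named genes were the 8 highest and lowest per comparison, calls, genes with 3 or more probes or probes on both arrays, and subunits of set complexes; other genes completed a step. Members, lists, motifs and the rule were chosen with earlier results of these data known, and normalizing 2 mice alone was added later. Of the trafficking spots, 0 read exactly 10, a value frequent elsewhere, and 0 stood 1.5 log2 or more from both others in a single mouse. The 14 other settings covered scaling, filter, floor, probe choice, threshold, array kind, single spots and spot position. The steps were tested on simulated data. Python 3.11.15, numpy 2.4.6, pandas 2.3.3, statsmodels 0.14.6 and matplotlib 3.10.9 were used.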

Additional observations from a re-analysis of the deposited data

How the results depend on the processing

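Counts and medians of the trafficking genes depended on scaling, filter and spot position. Without scaling, which leaves the 174-day arrays dimmer, the count at least 2-fold apart was 72 (all lower) in the age comparison, where 99.7% of all genes were lower. It was 71 (all higher) in the diet comparison, where 98.9% of all genes were higher. In the last comparison it was 3 (all lower), where 3.1% of all genes were lower and 0.465% higher. The medians were -2.70, 2.45 and -0.40, against -2.83, 2.57 and -0.28 over all genes. Stx17 and Rab11fip2 then had diet differences of 1.13 and 0.87. With median centring the age count was 1 (higher), where 1.58% of all genes were higher and 0.362% lower. The diet count was 16 (all lower), where 15.8% of all genes were lower and 1.29% higher. The medians were 0.31 and -0.53, against 0.21 and -0.31 over all genes. Without the filter the age count was 2, the diet count 9 (3 higher, 6 lower) and the medians -0.064 in the diet and -0.0588 in the last comparison, over 132 genes; of all 7151 genes 1.96% were then higher and 1.26% lower in the age and 3.06% and 4.38% in the diet comparison. With the top 25% of probes the diet count was 1 (lower), where 3.04% of all genes were lower and 1.52% higher. The medians were -0.30 in the diet and -0.27 in the last comparison, against -0.07 and -0.14 over all genes. Array A alone gave a diet count of 0, where 2.42% of all genes were higher and 5.19% lower. Stx17 and Rab11fip2 have no probe on array A, so this setting could not count them. With the position correction the diet count was 0, where 0.93% of all genes were higher and 2.02% lower, and the medians were -0.0265 and -0.047. At 1.5-fold the counts were 4, 24 and 15, and the shares over all genes are given above. Loess, the higher floor, the brightest or mean probe, array B alone, leaving out spots at exactly 10 or far in 1 mouse, and normalizing the 17-day and calorie-restricted arrays alone (median -0.20, count 0) left counts the same and medians close. Several of these settings could change little. With 0 trafficking spots at exactly 10 and 0 far in 1 mouse, leaving such spots out could not alter a trafficking gene. The choice of probe could not alter the 65 genes with 1 probe above the filter. Array B alone had to keep Stx17 and Rab11fip2, whose only probes are on it. Of 147 named differences, 103 moved by more than the SD between probes without scaling, and a further 2 were counted apart as reversed. Many of the 103 also changed sign, since every named age difference was then below 0 and every named diet difference above 0. Sec24d, for example, went from 0.77 to -2.57 in the age comparison, and Arf3 from -0.90 to 1.13 in the diet comparison. The position correction moved 19 named differences, median centring 18 and leaving out the filter 2. The cause was not tested. No paired analysis was possible because each group held 1 mouse. Only 80 of 169 probes lay above the filter, which leaves most endosomal Rab genes unread.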

Other observations

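Several spots carry a trafficking gene together with another symbol and were therefore not counted among the 132 genes; their signal cannot be assigned to either gene. A spot for Gm38529 and Vamp3, a SNARE of recycling endosomes, had log2 differences of 0.64 in the age, -0.12 in the diet and 0.53 in the last comparison. Both spots on array A for Tmem214 and Arf1, the founding member of the Arf family, were higher in the calorie-restricted than in the 174-day mouse, by 0.44 and 0.43, and differed by 0.00 and -0.04 with age. Arf3, with its own probe on array B, had a diet difference of -0.90. A spot for Iars2 and Rab3gap2, a regulator of Rab3 and Rab18, had an age difference of -0.67 and a diet difference of 0.48. A spot for Atp6v1h and Ap3d1, the delta subunit of AP-3, stood at -0.16 and 0.03, whereas the dim probe of Ap3d1 alone read 1.57 and -1.37.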
